A study of Drosophila melanogaster with 4 samples.

Results

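The ELAV family of Drosophila melanogaster comprises 3 genes, elav, fne and Rbp9, of 10844 named on the array, and the array carried 4 probe sets that the platform annotation gives to them, of 13966 probe sets that were not controls. The probe sets were taken by gene name alone: 1 for elav (154632_at), 1 for fne (144973_at) and 2 for Rbp9 (152149_at and 145682_at). The RNA came from brains of Canton-S wild-type pharate adults, animals about to emerge from the pupal case, dissected by hand, with around 1000 of them pooled in each experiment. Complexes that hold the RNA-binding protein LARK were recovered by immunoprecipitation (IP) with a purified antibody, and RNA of the same lysate that had not gone through this step served as total RNA, so that each of the 2 experiments yielded 1 IP array and 1 total RNA array. All 4 samples shared genotype, stage and tissue. Within an experiment the samples differed in the immunoprecipitation, and the experiments used separate lysates. A sample made with beads alone was not analysed here, so that background binding to the beads is not subtracted from any ratio. The paper states, without showing the data, that several controls with beads alone enriched no particular RNAs.

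ELAV family proteins bind uridine-rich stretches of RNA through RNA recognition motifs and are the fly counterparts of the vertebrate Hu proteins. ELAV itself is found in nearly all neurons, where it acts in the nucleus on alternative splicing and on the choice of the 3′ end, and antibodies against it are a standard neuronal label. FNE (found in neurons) is likewise neuronal and largely cytoplasmic, and RBP9 is present in neurons and also in the ovary. The question here was whether transcripts that encode these neuronal RNA-binding proteins were themselves more abundant in the LARK precipitate than in the lysate, and whether the paralogs behaved alike.

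The 3 genes lie apart in the genome. By RefSeq (assembly Release 6), elav (CG4262) and fne (CG4396) are on chromosome X and Rbp9 (CG3151) is on 2L. The elav gene overlaps arg and lncRNA:enrr, and Rbp9 overlaps Ts, whereas no annotated gene overlaps fne. The probe set of arg read 0.5 and 19.7 in IP, compared with 5.4 and 11.6 in total RNA, an order opposite in the 2 experiments. The probe set of Ts read 4.3 and 1.1 in IP, compared with 1.0 and 0.4 in total RNA, all at or below background. Where in the transcripts the probes of the 4 probe sets lie was not analysed here.

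Signals were MAS5 intensities that had been scaled on each array to a common target, so a value is a share of the RNA on its array. The arrays were alike, with median signals of 2.7 to 2.8. Background was taken as 4.49, the 95th percentile of 23 control probe sets for bacterial, yeast and mouse sequences over the 4 arrays, and 35.0% to 37.1% of probe sets lay above it on each array. Probe sets for the 3′ end and the middle of 2 control transcripts were also compared. The ratio of 3′ to middle signal for eIF-4a was 5.29 and 10.1 in IP, compared with 3.27 and 6.83 in total RNA, and for GAPDH 8.28 and at least 10.8 against 5.71 and 7.04, the middle signal of IP 2 being below background and taken as 4.49. These ratios were higher in the IP sample of both experiments, and their part in the results below was not tested.

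Transcripts of fne were the clearest case in the family. The fne signal was 19.3 and 24.6 in IP, compared with 5.1 and 12.4 in total RNA, in experiments 1 and 2. All 4 signals exceeded background, and both IP signals lay above both total RNA signals. Such a separation was seen for 15.4% of the 3492 tested probe sets, those in the top 25% by mean signal, and among the 3 tested members for fne alone. The plain ratio of IP to total RNA was 3.78 in experiment 1 and 1.98 in experiment 2. On the scale of log2(signal + 0.8), the mean log2 ratio was 1.36 ± 0.58 (SD, n = 2), a 2.56-fold difference with a 95% confidence interval of 1.44 to 4.56. The transcript did not pass the test after adjustment over all tested probe sets (limma, replicate block, adjusted p = 0.115). It ranked 153 of 3492 by p, and 144 tested probe sets had a higher ratio. With every signal below background raised to 4.49, a setting chosen after the data had been seen, the ratio of fne was the same and its adjusted p was 0.0243. Over the 13 alternatives tried for fne, this was the only one below 0.05, and the others gave 0.0558 or more.

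Transcripts of elav were dimmer, and 1 of the 4 signals could not be told from background. The elav signal was 7.0 and 12.7 in IP, compared with 1.5 and 7.2 in total RNA. It was higher in IP within each experiment, but IP 1 lay just below total RNA 2, so the groups overlapped. The signal of 1.5 in total RNA 1 was below background and at percentile 37.7 of its array, and so elav was measured in 1 of the 2 total RNA samples. The mean log2 ratio was 1.26 ± 0.71 (SD, n = 2), 2.39-fold with a 95% confidence interval of 1.03 to 5.56, and it did not pass (limma, adjusted p = 0.394). In experiment 1 the log2 ratio was 1.76, and it was 0.56 with the total RNA signal raised to background, which lowers the mean to 0.66. In experiment 2, where both signals exceeded background, it was 0.75, a plain ratio of 1.76. Fits with 1 array left out had no replicate block, so they also set arrays of different experiments against each other. Without total RNA 1 the mean log2 ratio was then 0.36 for elav and 0.78 for fne. Without total RNA 2 it was 2.16 for elav and 1.94 for fne.

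The name of the elav probe set is subject to a disagreement between sources. The study's supplementary list of putative LARK targets pairs elav with a different probe set, 148582_r_at, and pairs 154632_at with CG7029. The platform annotation gives 148582_r_at to Mob2. The elav values above may therefore belong to another gene, and neither source could be checked against probe sequences here. That probe set read 12.7 and 51.5 in IP, compared with 6.0 and 18.2 in total RNA. Its IP signal was the higher one in each experiment, and the groups overlapped. Its mean log2 ratio was 1.23 ± 0.33 (SD, n = 2; limma, adjusted p = 0.103), so that neither probe set named elav passed. Its plain ratio was 2.12 and 2.83, at least 2-fold in both experiments. The study called its putative targets by other criteria within each experiment, among them a rise of more than 2-fold.

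Transcripts of Rbp9 did not share this pattern on the brighter of its probe sets. The signal of 152149_at was 7.1 and 15 in IP, compared with 8.1 and 26.1 in total RNA. It was lower in IP within each experiment, by a plain ratio of 0.88 and 0.57, but IP 2 lay above total RNA 1 and the groups overlapped. The mean log2 ratio was -0.47 ± 0.42 (SD, n = 2; limma, adjusted p = 0.680), 0.72-fold with a 95% confidence interval of 0.41 to 1.28. Within each experiment the log2 ratio was negative, at -0.17 and -0.77. In the fits with 1 array left out, which did not keep the pairing by experiment, the sign turned without IP 1, at 0.03. Without total RNA 2 the mean was 0.33.

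The other Rbp9 probe set, 145682_at, was too dim to be tested, and its nominal values ran the other way. It read 4.5 and 3.9 in IP, compared with 1.9 and 1.3 in total RNA. Only IP 1, at 4.5, reached above 4.49, so that the size of its ratio cannot be read. The 2 probe sets of Rbp9 therefore disagreed in direction, and the comparison of Rbp9 with its paralogs rests on the brighter one.

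**Figure D1:**
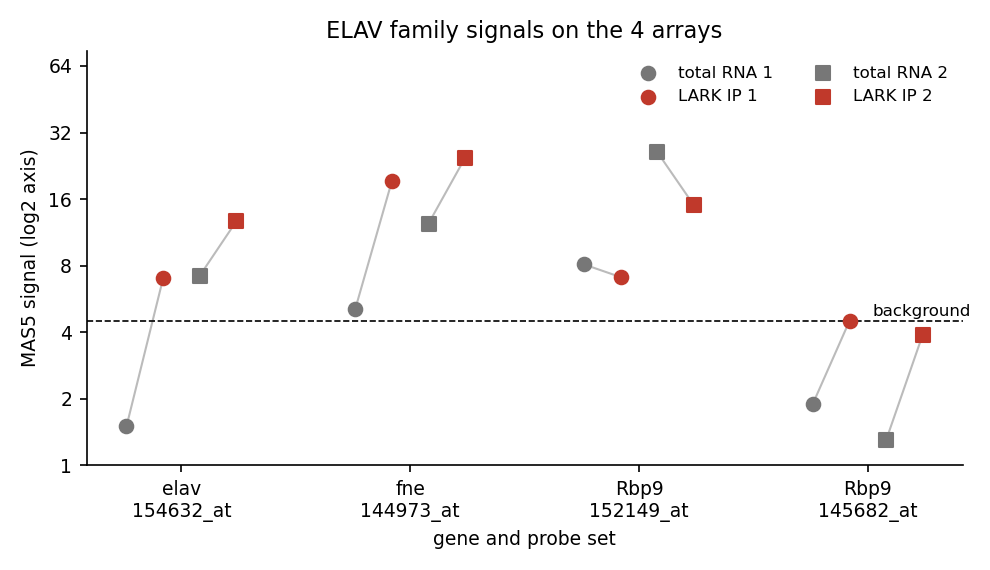
MAS5 signal (log2 axis) of the 4 ELAV family probe sets in total RNA (grey) and LARK IP (red) of experiment 1 (circles) and experiment 2 (squares), with a grey line joining the 2 samples of an experiment and a dashed line at the background of 4.49. The fne values were 19.3 and 24.6 in IP, compared with 5.1 and 12.4 in total RNA, while those of Rbp9 (152149_at) were 7.1 and 15 against 8.1 and 26.1.

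In all, 0 of the 3 tested members passed the limma test at an adjusted p of 0.05, in which 2.69% of tested probe sets were higher in LARK IP and 0.172% lower (273 and 146 probe sets, respectively, had p under 0.05 before adjustment, fne and elav among the 273 and Rbp9 in neither). By the platform annotation, 0 of the 3 tested members were at least 2-fold higher in both experiments by plain ratio, which 3.87% of tested probe sets were, whereas 148582_r_at was. Of the tested members fne came nearest, with 1.98 in experiment 2. A positive log2 ratio in both experiments, as for elav and fne, was seen for 27.1% of tested probe sets, and a negative one in both, as for Rbp9, for 30.7%. Across the tested probe sets the median log2 ratio was -0.04. By mean log2 ratio fne stood at percentile 95.9 of the tested probe sets and Rbp9 at 19.3. The place of elav, at 95.2, rests on its total RNA 1 signal below background.

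**Figure D2:**
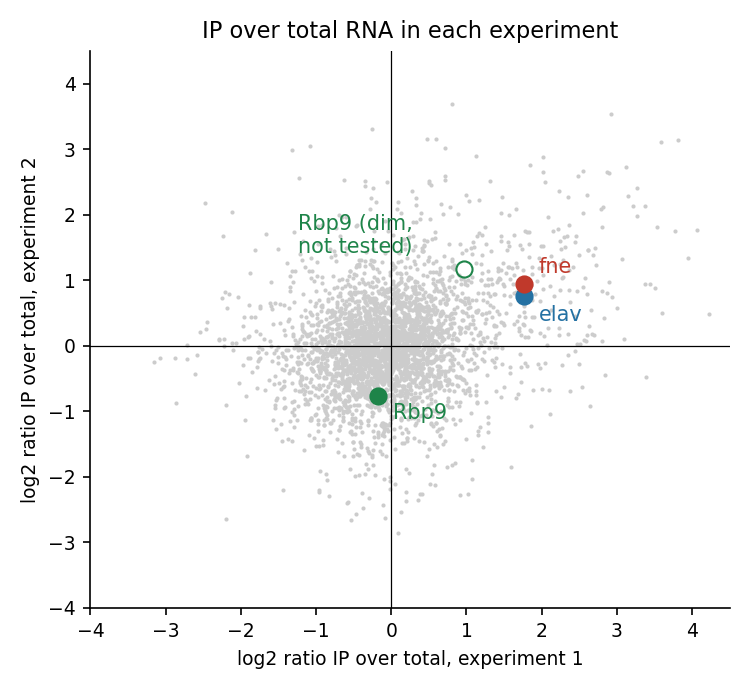
The log2 ratio of LARK IP over total RNA in experiment 1 (horizontal axis) and experiment 2 (vertical axis) for the 3492 tested probe sets (grey; 1 lies outside the axes), with the tested members as filled circles and the dim Rbp9 probe set as an open circle. The points of elav (1.76 and 0.75) and fne (1.77 and 0.94) nearly coincide, with the first elav value taken against a signal below background, and the tested Rbp9 probe set lies at -0.17 and -0.77.

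The paralogs were then compared by their ratios, since signals of different probe sets cannot be set against each other. The ratio of elav exceeded that of Rbp9 by 1.93 on the log2 scale in experiment 1 and by 1.52 in experiment 2, a mean of 1.73 ± 0.29 (SD, n = 2). With signals raised to background these were 0.73 and 1.52, a mean of 1.13 ± 0.56. The ratio of fne exceeded that of Rbp9 by 1.94 and 1.71, a mean of 1.83 ± 0.16, which is 3.55-fold. All signals of fne and of this Rbp9 probe set were above background. The exact permutation test of 2 arrays against 2, two-sided, gave p = 0.33 for elav against Rbp9 and for fne against Rbp9 (adjusted p = 0.50 over the 3 pairs). This is the smallest p that the test allows, and the test did not use the pairing of arrays by lysate. Between fne and elav the difference was 0.01 in experiment 1 and 0.19 in experiment 2, a mean of 0.10 ± 0.13 (exact permutation test, p = 0.67, adjusted p = 0.67), and its sign turned without the pseudocount, at -0.07. With signals raised to background it was 1.21 and 0.19, a mean of 0.70, so how close the ratios of fne and elav are could not be told from these arrays.

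The 3 genes also differed between the experiments. Total RNA 2 gave 4.80 times the signal of total RNA 1 for elav, 2.43 times for fne and 3.22 times for Rbp9 (152149_at), where the elav value starts from a signal below background. A signal at least 2-fold above that of total RNA 1 was seen for 12.9% of tested probe sets. IP 2 likewise gave 1.81 times the signal of IP 1 for elav, 1.27 times for fne and 2.11 times for Rbp9. All 3 were thus higher in experiment 2 in both kinds of sample, as were 32.1% of tested probe sets. The IP and total RNA arrays of an experiment were hybridised on the same day, a different one for each experiment, so the lysate and the hybridisation day cannot be told apart. Nor, between lysates, can more cells of a type and more RNA per cell. The dim Rbp9 probe set gave signals in experiment 2 that were 0.87 times those of experiment 1 in IP and 0.68 times in total RNA. Most of these signals lay below background, so its change between experiments cannot be read.

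The transcripts most like each member over the 4 arrays were sought among 2883 other tested genes, by the Euclidean distance between log2 values centred on their mean. Nearest to elav were CG4022 (distance 0.09), Kdm5 (0.12), a histone demethylase, and Mbs (0.22), the targeting subunit of myosin phosphatase, with mean log2 ratios of 1.28, 1.30 and 1.30. CG4022 and Mbs shared with elav a total RNA 1 signal below background, at 1.3 and 1.4. Nearest to fne were CG6329 (0.20), Pkc98E (0.20), a protein kinase C, and CG10803 (0.23), with mean log2 ratios of 1.44, 1.22 and 1.21. Pkc98E was much brighter than fne, at 389.7 and 541.5 in IP, compared with 124.9 and 311.4 in total RNA. Nearest to Rbp9 were fry at a distance of 0.12, Hel89B (0.22), a helicase, and dati (0.23), a zinc finger protein of neurons, with mean log2 ratios of -0.53, -0.31 and -0.33. The paralogs were farther off: fne was the 30th nearest gene to elav, at 0.56, and elav the 46th nearest to fne. Rbp9 stood at 1.74 from elav and 1.91 from fne. Distances over 4 arrays describe these samples only.

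Proteins related to the ELAV family through their RNA recognition motifs gave no called transcript. Of 7 such genes 4 had a named probe set and 3 were tested, with a median log2 ratio of -0.20 against -0.04 over all tested probe sets. Across all tested probe sets, 2.69% were called higher in LARK IP and 0.172% lower. pAbp, the poly(A)-binding protein, had 0.59 ± 0.10 (SD, n = 2), with 192.7 and 344.6 in IP, compared with 122.0 and 240.7 in total RNA (limma, adjusted p = 0.255). Its second, untested probe set had 8.0 and 7.0 in IP against 0.8 and 0.9. The Sex-lethal relative ssx had -0.20 ± 0.67 and Rox8, a protein of the TIA type, -0.39 ± 0.54. Sxl itself was too dim to be tested.

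Transcripts known to depend on ELAV family proteins for their splicing, 3′ end or level gave no call. Of 10 genes 8 had a probe set and 4 were tested, of which 0 passed in limma (adjusted p = 0.144 to 0.375). Of all tested probe sets, 2.69% passed as higher and 0.172% as lower. All 4 tested genes had a positive log2 ratio in both experiments, as did 27.1% of tested probe sets, and the median of the 4 was 1.13. pum, the translational repressor Pumilio, had 1.86 ± 1.62 (SD, n = 2), from 8.4 and 57.3 in IP, compared with 4.8 and 6.4 in total RNA, so that most of its ratio came from experiment 2. Nrg, the cell adhesion protein Neuroglian whose neuronal isoform depends on ELAV, had 1.37 ± 0.16, from 10.1 and 15.7 against 3.1 and 6.1 (limma, adjusted p = 0.215). The 3.1 in total RNA 1 lay below background. The transcription factor gene ewg, another splicing target of ELAV, had 0.90 ± 0.35, and emc, which RBP9 regulates in the ovary, had 0.87 ± 0.72.

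Of 30 genes for other RNA-binding proteins that act in neurons, 23 had a probe set and 10 were tested. None passed (limma), beside 2.69% of all tested probe sets called higher and 0.172% lower. In both experiments 6 had a positive ratio and 2 a negative one, beside 27.1% and 30.7% of all tested probe sets. The median log2 ratio was 0.69. Besides pum, the highest ratio was that of Syp, a Syncrip protein, at 1.18 ± 0.81 (SD, n = 2), with 12.4 and 11.4 in IP, compared with 3.1 and 7.2 in total RNA. The lowest were glo, an hnRNP F/H protein, at -0.99 ± 0.67, and stau, the double-stranded RNA-binding protein Staufen, at -0.14 ± 0.16. The list shares pum with the list of ELAV-dependent transcripts.

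Neuronal markers outside the family were split. Of 16 pan-neuronal genes 10 had a probe set, 9 of these were above background on at least 1 array, and 6 were tested. The summed signal of the 10 was 291.8 and 348.8 in IP, compared with 118.1 and 244.2 in total RNA. The 8 of them that were not called summed to 64.4 and 76.0 in IP and to 70.4 and 106.1 in total RNA, so that nrv3 and futsch made up the excess in the sums. These 2 were set apart because their ratios were high, so the split is no test. Bright probe sets weigh most in such sums. Of the 6 tested, 2 rose and 0 fell, beside 2.69% and 0.172% of all tested probe sets. In both experiments 2 had a positive and 2 a negative ratio, beside 27.1% and 30.7% of all tested probe sets. The median log2 ratio was 0.84, and 0.52 with signals raised to background. nrv3, a neuronal sodium pump beta subunit, had 1.65 ± 0.87 (SD, n = 2; limma, adjusted p = 0.0227), with 182.1 and 176.9 against 37.1 and 85.8. futsch, a microtubule-associated protein of axons, had 1.44 ± 0.81 (adjusted p = 0.0470), while its other 2 probe sets lay below background on all arrays. Both calls were lost without the replicate block, as was every call on the array. Without the trend 1 call was left on the whole array, so at least 1 of the 2 was lost there too. The calls of nrv3 and futsch stood beside unc-13, a synaptic vesicle priming protein, at -0.98 ± 0.23 (limma, adjusted p = 0.0906), and Rab3, a synaptic vesicle GTPase, at -0.53 ± 0.23. The part of the neuronal markers in the ratios of elav and fne was not tested.

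Markers of other cell types gave no call in limma, beside 2.69% of all tested probe sets called higher and 0.172% lower. Of 10 glial genes 9 had a probe set and 5 were tested, with a median log2 ratio of 0.05 and a summed signal of 326.9 and 231.5 in IP, compared with 350.4 and 199.7 in total RNA. Among them the glutamine synthetase gene Gs2 had 0.76 ± 0.47 (SD, n = 2), nrv2 0.23 ± 0.40, the astrocyte gene alrm -0.07 ± 0.45 and repo, the glial transcription factor, -0.0038 ± 0.07. Of 11 photoreceptor genes 7 had a probe set and 6 were tested, with a median of -0.45. A negative ratio in both experiments was seen for 5 of the 6, beside 30.7% of all tested probe sets. The summed signal of the 7 was 137.8 and 196.9 in IP, compared with 161.5 and 289.2 in total RNA. The lowest were inaD at -1.06 ± 1.03 and chp at -0.76 ± 0.20, and the highest were trpl at 0.0011 ± 0.55 and Arr1 at -0.25 ± 0.30. The part of these markers in the Rbp9 ratio was not tested.

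Markers of tissues around the brain were dim or level. Of 6 fat body genes 3 had a probe set and 0 were bright enough to be tested, and they summed to 7.0 and 3.0 in IP, compared with 15.7 and 11.0 in total RNA. Of 8 muscle genes 5 had a probe set and 2 were tested, up at 0.10 ± 0.14 (SD, n = 2) and Mlc2 at -0.05 ± 0.14, and the 5 summed to 56.4 and 37.8 against 55.2 and 37.3. All 8 haemocyte genes had a probe set and 4 were tested, with a median log2 ratio of -0.32 and sums of 53.8 and 45.0 against 70.5 and 43.0. Their ratios were 0.47 ± 1.01 for Pxn, -0.29 ± 0.19 for SPARC, -0.36 ± 0.69 for Col4a1 and -0.75 ± 0.81 for vkg.

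**Figure D3:**
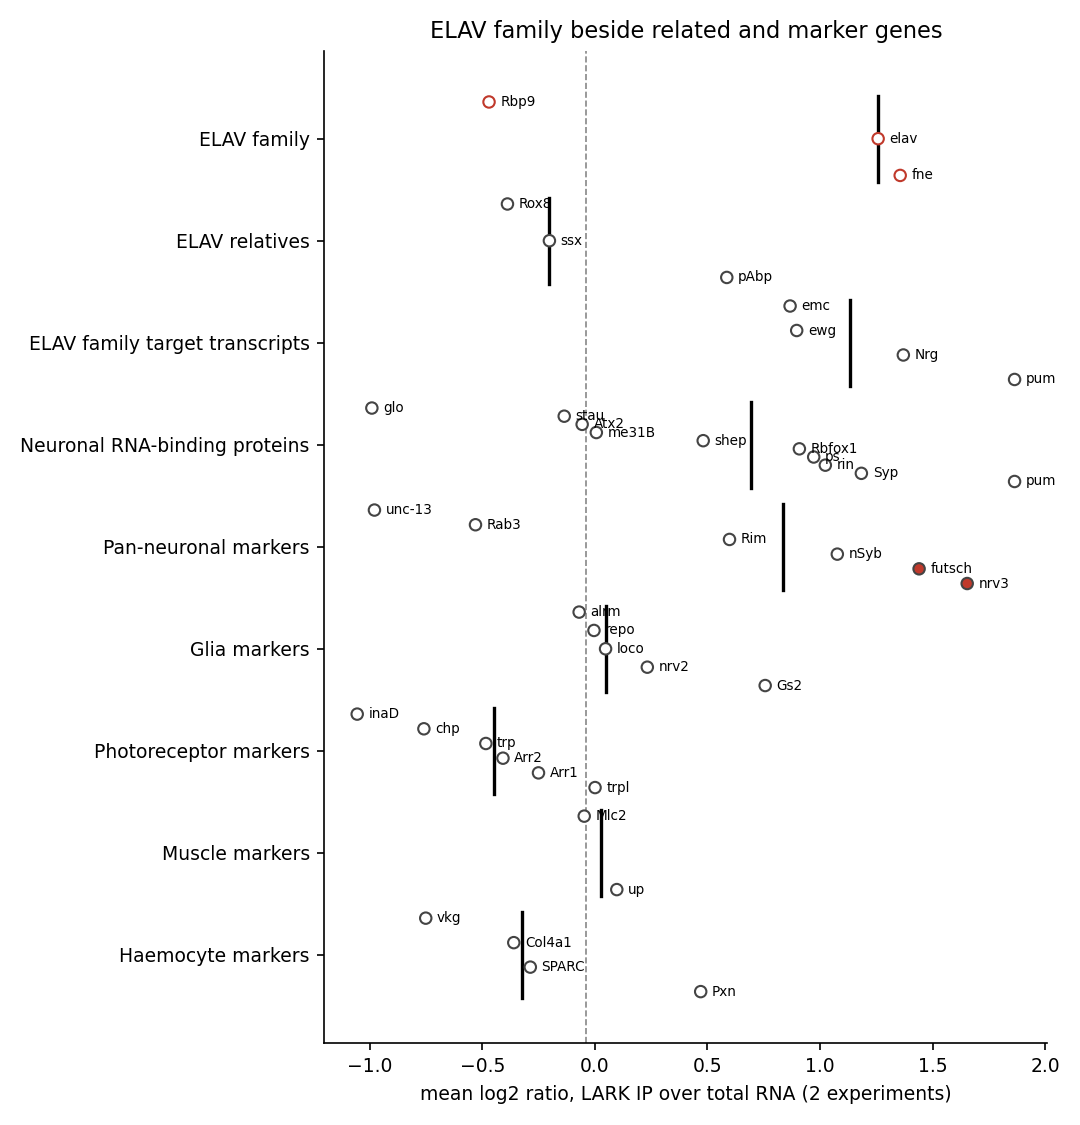
Mean log2 ratio of LARK IP over total RNA (horizontal axis, 2 experiments) for the tested genes of the ELAV family and of each list, 1 circle a gene, with a black bar at the median of the list and a dashed line at the median of all tested probe sets, -0.04. Filled circles passed the limma test, which only nrv3 and futsch did, while elav at 1.26 and fne at 1.36 did not.

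The order of the family held under most processing settings. The ratios of elav and fne were positive under every alternative that gave a value, and that of Rbp9 on its brighter probe set lay below both of them under each of these. The alternatives of block, filter and trend could not move a ratio. With the dim Rbp9 probe set in place of the brighter one, elav minus Rbp9 was 0.19 and fne minus Rbp9 was 0.29. The order of elav and fne between themselves was not stable.

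**Figure D4:**
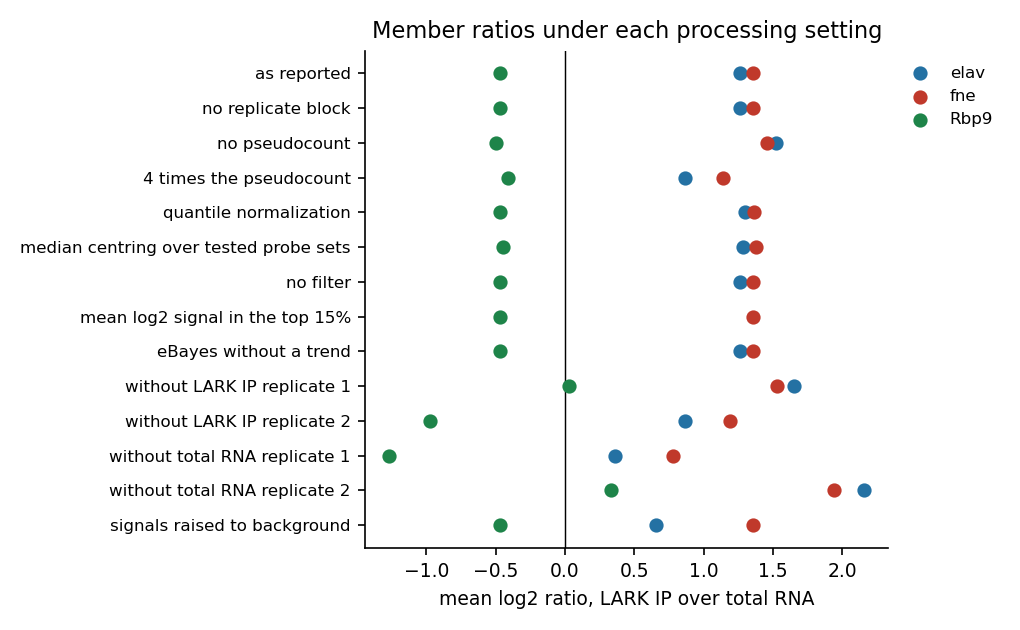
Mean log2 ratio of LARK IP over total RNA (horizontal axis) of elav (blue), fne (red) and Rbp9 (green, 152149_at) as reported and under each alternative setting. The Rbp9 ratio lies between -1.27 and 0.33 and stays to the left of elav and fne in every row; elav has no point in the top 15% row, where it was too dim to be kept.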

How the data were processed

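RNA from 2 LARK IP and 2 total RNA samples was labelled in equal amounts and hybridised to Affymetrix DrosGenome1 arrays, 1 array per sample. The deposited values are signal intensities per probe set, which the authors computed with MAS5 (Microarray Suite 5.0) and scaled to 1 target intensity; detection calls were not used here. Of 14010 probe sets, 44 were controls, and 12443 of the others had 1 gene symbol, 327 several and 1196 none. Values were taken as log2(signal + 0.8), which understates differences of dim signals.

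IP was compared with total RNA by limma (version 3.58.1, R version 4.3.3; eBayes with trend) over the top 25% of probe sets by mean log2 signal, with Benjamini-Hochberg adjustment. The replicate number was a block, since both samples of a number came from 1 lysate (r = 0.36 between the differences of the 2 IP arrays and of the 2 total RNA arrays). The precision is limited by the number of arrays: with 1 residual degree of freedom, the spread is largely borrowed from all probe sets. The fit was tested on data simulated with normal errors and the spread that the fit itself had estimated. Such data follow the model, so they cannot tell how it fares on signals near background.

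A gene with several probe sets is represented by the brightest. Named were all probe sets of the members, and from each list the called genes or, with none, the 2 highest and 2 lowest ratios; other genes named were chosen after their values were seen. Of 106 list entries, 29 matched no probe set. Members and lists were chosen with earlier results of these data known. Alternatives tried were the block, pseudocount, normalization, filter, trend and each array left out, the last without the block. Chosen after seeing the data were other probe sets and signals raised to background.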

Additional observations from a re-analysis of the deposited data

How the results depend on the processing

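The call and direction of elav, fne and Rbp9 were the same in 36 of 40 recomputations. The exceptions were fne, which passed with signals raised to background (log2 ratio 1.36, adjusted p = 0.0243), and Rbp9, whose sign turned on its dim probe set (1.07, with 3 of 4 signals below background) and in 2 of the 4 fits that left out 1 array (range -1.27 to 0.33, positive without IP 1 and without total RNA 2). Leaving out 1 array gave 0.36 to 2.16 for elav and 0.78 to 1.94 for fne. The fits that left out 1 array had no replicate block and so also compared arrays of different experiments. Without the replicate block the ratios were those reported, with adjusted p = 0.930 for fne, and no member passed with or without it. No probe set on the array passed without it, and a change of block, filter or trend alone cannot alter a ratio. Part of the 36 of 40 was therefore fixed in advance. The difference of fne minus elav turned without a pseudocount (-0.066) and ranged from -0.22 to 0.42 with 1 array left out. Raising signals to background moved it to 0.70, that of elav minus Rbp9 to 1.13 and the ratio of elav to 0.66, and left fne minus Rbp9 at 1.83. With the top 15% filter elav could not be tested.

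The number of called probe sets, 94 higher and 6 lower, moved more. It was 0 and 0 in limma without the block (137 and 38 with p under 0.05 before adjustment) and 29 and 3 with quantile normalization. It was 1 and 0 without the trend (232 and 115 unadjusted) and 158 and 28 with signals raised to background. Lower calls numbered 18 with 4 times the pseudocount, 2 with median centring and 0 with the top 15% filter (115 unadjusted). The cause was not tested. Signals near background, among them total RNA 1 of elav, limit what can be said of these dim transcripts.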
